A study of Anolis carolinensis with 142 samples.

Results

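The 30 genes described here stood higher at night than by day in brain, eye and liver of the green anole (Anolis carolinensis), a small diurnal lizard. They were chosen from 26479 gene IDs, of which 11037 had a median of at least 1 CPM (the usual unit of a count scaled by the total of its library) in each of the 3 tissues. For each of these genes a t statistic with unequal variances was taken on log2(CPM + 1) for Midnight against Midday in each tissue, with males and females together. The genes were ranked by the lowest of their 3 t statistics, and the 30 highest with all 3 above 0 were kept. These comparisons chose the members, so their values in brain, eye and liver are given as a description without a test.

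Many tissues hold a circadian clock, a feedback loop of transcription that turns over once a day and drives daily rhythms in a large number of other genes. In lizards the pineal gland and the retina sense light and make melatonin, the hormone of the night, and so pass the length of the dark phase on to the body. Light at night can act on such rhythms through the eye and, in lizards, through photoreceptors within the brain and the pineal.

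The data were RNA sequencing counts of 142 libraries from 24 wild-caught adults labelled WT, taken in the breeding season. Midday animals were killed by day and Midnight animals in the dark. ALAN animals were killed over the same night hours as the Midnight animals, after artificial light at night. Both night groups were dissected under a red torch, and each treatment held 4 males and 4 females. Brain (with the pineal), eye, liver, dorsal skin, ventral skin and testes or ovary were taken from each animal. Dorsal skin, ventral skin, testes, ovary and all ALAN libraries took no part in the choice, although dorsal skin, ventral skin and gonads came from the same animals as brain, eye and liver.

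The IDs could not be paired with names, since 0 of 27148 rows of a RefSeq gene table carried one of them. The function of the members is therefore not described, no sequence is shown, and the tissue labels were not checked against marker genes. IDs are printed for the first 2 members by rank and for at most 2 members called in each comparison and direction, and the others are given by rank. Totals per library ran from 10257388 to 30952365 counts, with a median of 21039521. The libraries fell into a pair of counting classes by the share of even numbers among counts from 1 to 20, which was 40.5% to 44.4% in 42 libraries and 58.8% to 72.6% in 100. In liver and testes every ALAN library (8 and 4) was of the low-share class and every Midday or Midnight library of the high-share class, so the class and the light cannot be told apart there. Low-share libraries were also 7 of 8 in Midday eye, 7 of 8 in Midnight eye, 1 of 8 in ALAN eye, 6 of 8 in Midday dorsal skin, 1 of 7 in Midday ventral skin, 5 of 8 in ALAN ventral skin, 3 of 4 in ALAN ovary and 0 elsewhere. A total of 15 libraries stood apart from the others of their tissue, with a median correlation to them that was low by more than 5 median absolute deviations, and 1 of them was the brain library of Midnight female 4.

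The order of the members depended on how they were chosen. Of the 11037 genes, 1390 (12.6%) had all 3 t statistics above 0 and 2260 (20.5%) had all 3 below 0. The lowest t was 4.48 for the first member and 1.86 for the last, and the gene of rank 31 also stood at 1.86, so the limit of the list falls within a run of close values. Only 3 members had a lowest t above 3, and 11 were below 2. In the opposite direction, 87 genes had all 3 t statistics at or below the negative of the value that closes the list. Liver gave the lowest of the 3 statistics in 15 members, brain in 8 and eye in 7. With edgeR's statistic in place of the t, 19 of the 30 were chosen again, and the member of rank 1 fell to 24 and that of rank 2 to 6, while that of rank 3 came first. At a median of at least 5 CPM, 17 were chosen again, without those of ranks 1 and 2. These members passed the limit of 1 CPM in liver, at medians of 1.3 and 1.48 over all treatments, through the night libraries. Their Midday medians there were 0.0594 and 0.276. Without the libraries that stood apart 16 were.

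The members were spread over the genome. They lay on chromosomes 1 to 6 and on unplaced scaffolds, with 14 of 30 (46.7%) on scaffolds against 50.4% of the 11037 genes. The closest pair, of ranks 11 and 21 on chromosome 1, was 551877 bases apart. Their median length over merged exons was 1949 bases against 1927, and the median number of exons was 9 in both. Of the 30, 9 overlapped another annotated gene, a share that was not counted over the 11037 genes. None of the 4 IDs printed here did.

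In the tissues that chose them, most members differed little between night and day. The median log2 difference between Midnight and Midday was 0.24 in brain (range 0.09 to 2.21), 0.36 in eye (0.10 to 3.20) and 0.77 in liver (0.37 to 2.29). The members of ranks 1, 2 and 3 gave the 3 highest values in each of these tissues. Among the other 27, the highest values were 0.74 in brain, 0.69 in eye and 1.45 in liver. In bulk tissue, fewer cells of a type and less RNA per cell cannot be told apart.

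**Figure D1:**
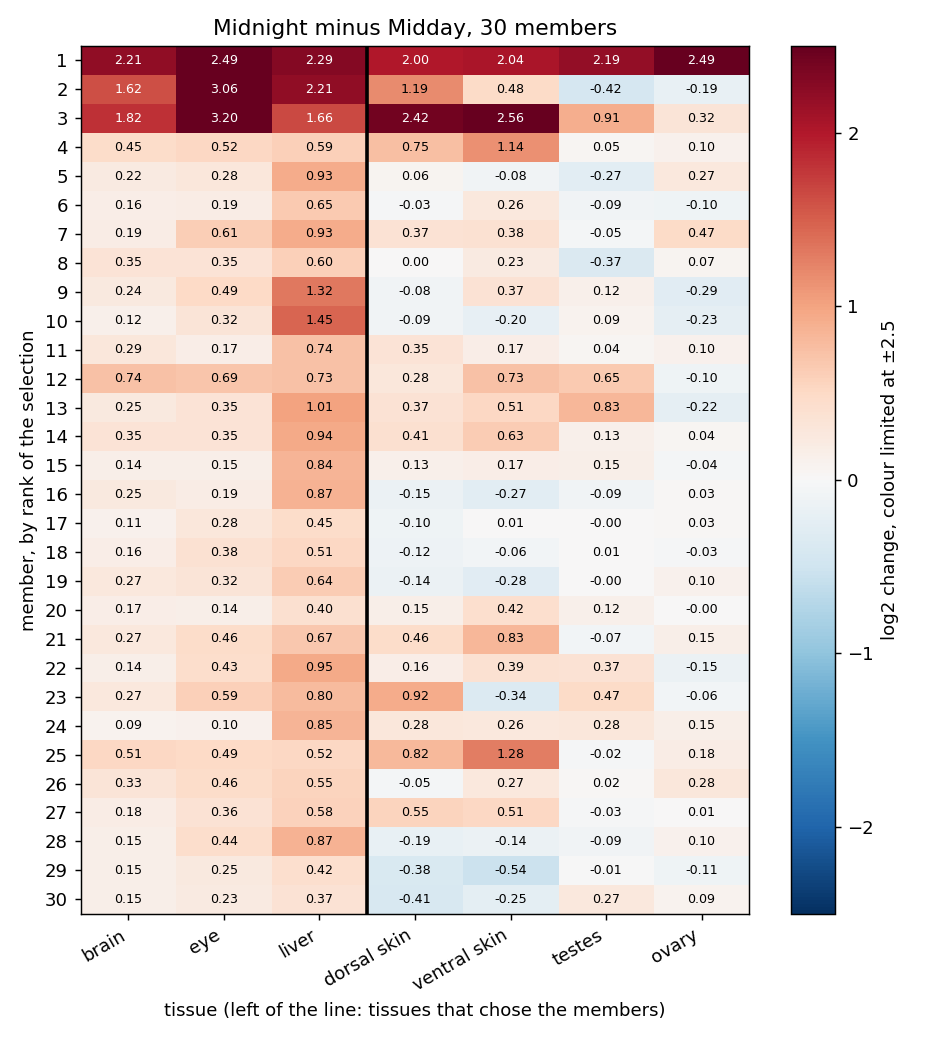
Log2 change of Midnight minus Midday (edgeR, sex as a covariate where both sexes were present) for the 30 members (rows, by rank) in 7 tissues (columns); colour gives the change and is limited at 2.5. Values left of the line come from the tissues that chose the members and are above 0 by construction, and to the right of it the high values lie mostly in the first rows, with 2.42 and 2.56 for the member of rank 3 in the skins.

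ENSACAG00000002850, the member of rank 1, was either present or nearly absent in a library, and the libraries of the same treatment, sex and number were alike in this in all 7 tissues. The labels do not state that such a number is an animal, but over all genes 306 of 350 comparisons of a library with another tissue, over 20 pairs of tissues, gave the highest correlation with its own number. It is a gene of 5 exons on the plus strand of an unplaced scaffold (bases 10363 to 15428, as the deposited table gives them), and the only annotated gene there. In brain its level at Midday had a lowest value of 0.0516, a median of 0.263 and a highest of 9.83 CPM over 8 libraries. At Midnight the 8 values ran from 7.84 to 19.1 with a median of 9.08, and under ALAN from 0.0515 to 20.9 with a median of 8.51. The brain libraries thus fell into 15 with 7.84 to 20.9 CPM and 9 with 0.0515 to 0.633 CPM, with none between.

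The 15 high brain libraries were all 8 of Midnight, 2 of 8 of Midday (male 3 and female 4) and 5 of 8 of ALAN. The libraries of these same numbers were the high ones in every other tissue. In eye they held 5.45 to 21.3 CPM against at most 0.69 in the rest, and in liver 0.858 to 3.69 against at most 0.204. In dorsal skin they held 2.68 to 10.5 against at most 0.383, and in ventral skin 2.99 to 12.0 against at most 0.356. In testes the 7 high libraries ran from 1.47 to 5.52 CPM and the 5 low ones up to 0.0832. In ovary 8 libraries stood at 4.42 to 11.2 and 4 at or below 0.172. The high and low libraries overlapped in none of the 7 tissues, and both classes occurred in both sexes and at Midday as well as under ALAN.

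**Figure D2:**
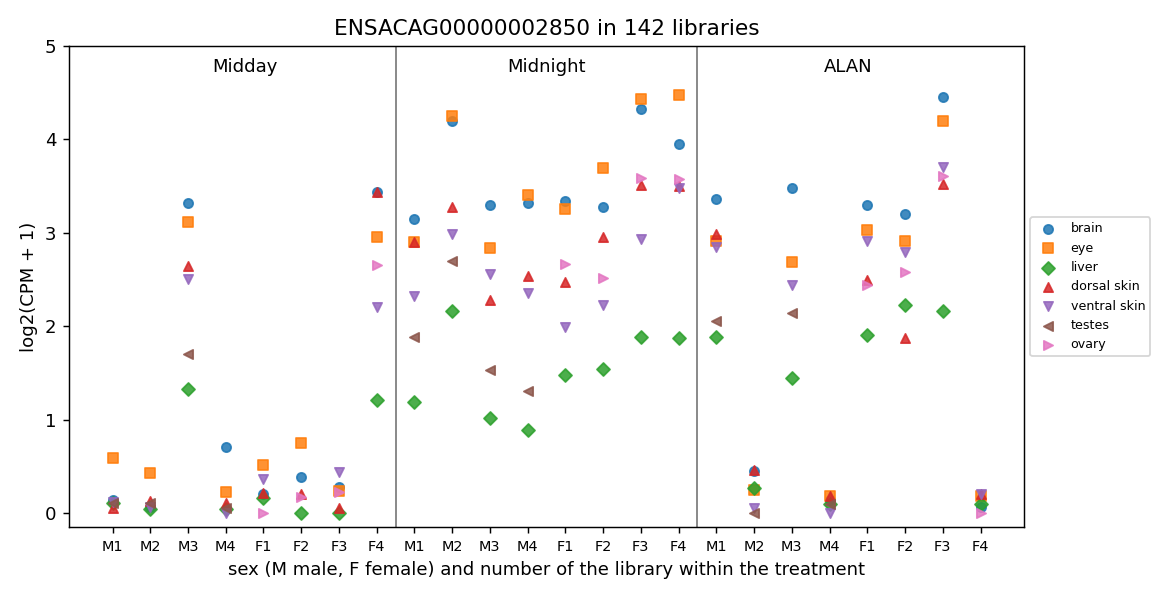
Level of ENSACAG00000002850 as log2(CPM + 1) (vertical axis) in all 142 libraries, by treatment, sex and library number (horizontal axis), with a marker for each tissue. All tissues of a number lie either high or near 0: the 8 Midnight numbers are high, against 2 of 8 at Midday and 5 of 8 under ALAN.

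For this gene the split within Midday and within ALAN left large errors on the treatment comparisons. In the tissues that took no part in the choice its log2 change at Midnight was 2.00 ± 0.99 (SE) in dorsal skin, 2.04 ± 1.06 in ventral skin, 2.19 ± 1.35 in testes and 2.49 ± 1.45 in ovary. None passed the test (adjusted p = 0.472, 0.468, 1 and 1, edgeR). Its ALAN to Midnight values ran from -1.31 ± 0.77 in eye (adjusted p = 0.601, edgeR) to -0.42 ± 0.83 in liver (adjusted p = 0.859, edgeR), and none of the 7 tissues passed. The like values in 7 tissues are thus a single split of 24 numbers seen 7 times. Each animal had 1 treatment, and the split also ran within Midday (2 of 8 high) and within ALAN (5 of 8 high). Whether the 8 of 8 at Midnight came with the treatment or with the animals drawn for it cannot be told apart.

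The same comparison was made for every member. Within each treatment and sex, the deviation of a library from its group was set against that of the same number in another tissue, over the 10 pairs of brain, eye, liver and the skins (22 to 24 libraries a pair, given as a description). ENSACAG00000002850 had a median r of 0.95 (range 0.89 to 0.98). The members of rank 12 (0.80, range 0.54 to 0.88) and rank 23 (0.64, range 0.55 to 0.82) came next, and were singled out after their values were seen. Over all 30 the median was 0.09, against 0.11 for the 11037 genes, and 3 of 30 members reached 0.5 against 492 (4.46%) of those genes.

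In the member of rank 12 the ALAN libraries of female 3 were low, with 0.257 CPM in brain (ALAN median 2.34), 0.617 in eye (median 2.41), 0.637 in liver (median 2.43) and 0.312 in ventral skin (median 2.43). Those of female 1 were also below the ALAN median there, at 1.18, 1.05, 1.23 and 1.22 CPM, and in dorsal skin female 1 was the lowest (0.772) and female 3 next (1.37). In the member of rank 23 those of ALAN male 4 were low, with 2.51 CPM in brain against an ALAN median of 11.7, 1.66 in eye against 8.15 and 0.275 in liver against 4.75. ALAN male 4 was the lowest of its group in each of these 3 tissues, and for rank 12 female 3 was in brain, eye, liver and ventral skin. Their Midnight to Midday values in skin did not pass the test, at 0.28 and 0.92 on the log2 scale in dorsal skin and 0.73 and -0.34 in ventral skin.

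**Figure D3:**
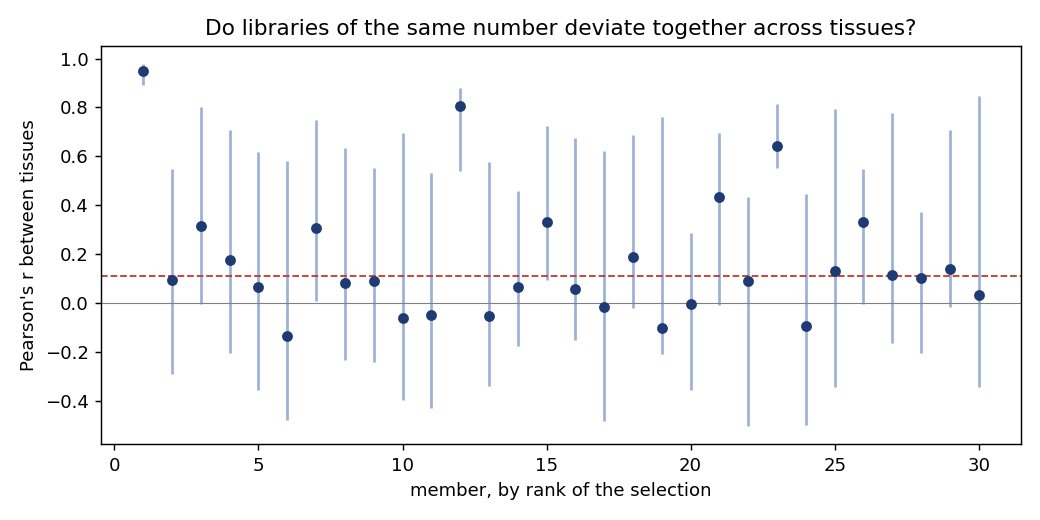
Pearson's r between tissues (vertical axis) of deviations from the group mean for libraries of the same number, for the 30 members by rank (horizontal axis); points are medians over 10 tissue pairs, lines run from the lowest to the highest pair, and the dashed line is the median of all 11037 genes (0.11). The members of ranks 1, 12 and 23 stand above 0.5.

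ENSACAG00000002847, the member of rank 3, was the 1 member that edgeR called higher at Midnight in the skins. It stood above its Midday level there under light at night too. This gene has 8 exons on the minus strand of chromosome 6 (69322100 to 69337242). In dorsal skin it held 24.1 to 48.3 CPM at Midday (median 39.7, n = 8), 112 to 281 at Midnight (median 202, n = 8) and 133 to 259 under ALAN (median 210, n = 7). In ventral skin it held 22.9 to 52.3 CPM at Midday (median 30.2, n = 7), 113 to 296 at Midnight (median 197, n = 8) and 97.7 to 323 under ALAN (median 265, n = 8). In both skins every night library, dark or lit, lay above every Midday library. The ALAN to Midnight values were 0.18 ± 0.24 in dorsal skin (SE, adjusted p = 0.821, edgeR) and 0.18 ± 0.25 in ventral skin (adjusted p = 0.756, edgeR).

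The Midnight to Midday change of ENSACAG00000002847 was 2.42 ± 0.24 on the log2 scale in dorsal skin (SE, adjusted p = 8.23e-06, edgeR) and 2.56 ± 0.28 in ventral skin (adjusted p = 5.37e-05, edgeR). The counting class moved with treatment in dorsal skin. With the class as a term the change there was 2.31 (adjusted p = 0.0637, edgeR), and the 2 Midday libraries of the high-share class held 29.3 and 48.3 CPM, against 24.1 to 46.7 in the 6 of the low-share class. In ventral skin, where 6 of 7 Midday libraries shared the class of all 8 Midnight libraries, those 6 ran from 22.9 to 52.3 CPM.

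In the gonads the night change of ENSACAG00000002847 was smaller. In testes the 4 Midday libraries held 2.77, 3.54, 4.45 and 5.98 CPM and the 4 Midnight libraries 5.12, 5.80, 8.91 and 11.1. In ovary they held 10.2, 13.5, 14.3 and 16.4 at Midday and 15.5, 16.9, 17.9 and 18.4 at Midnight. The groups overlapped in both organs. The log2 values were 0.91 in testes (adjusted p = 0.915, edgeR) and 0.32 in ovary (adjusted p = 1, edgeR). The change was larger in skin than in gonads by 1.91 ± 0.29 (SE, adjusted p = 9.55e-05, edgeR), in a fit that treated all libraries as independent although an animal gave up to 3 of them. The counting class was not a term in that fit. ENSACAG00000002847 was the 1 member of 30 for which this difference was called higher in skin, against 0.0303% of 19799 genes tested. In 6 members, all larger in skin, the unadjusted p was under 0.05 (4.46% of all genes larger and 5.65% smaller in skin), and DESeq2 called 1.

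Under light at night ENSACAG00000002847 was below its Midnight level in eye and above its Midday level in 5 tissues. The Midnight and Midday libraries of brain, eye and liver helped to choose it, which favours both differences in those tissues. In eye it held 38.9 to 80.9 CPM at Midday (median 48.1), 394 to 524 at Midnight (median 482) and 257 to 365 under ALAN (median 311), with 8 libraries in each group and no overlap. The ALAN to Midnight change was -0.62 ± 0.11 (SE, adjusted p = 0.0108, edgeR). It was -0.76 with an adjusted p of 0.0618 (edgeR) with the counting class as a term, a class that held 7 of 8 Midnight and 1 of 8 ALAN eye libraries. The 1 Midnight library of the high-share class held 494 CPM, and the 7 ALAN libraries of that class held 257 to 365.

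In brain its 8 ALAN libraries held 87.7 to 127 CPM (median 110) and its 8 Midnight libraries 87.3 to 150 (median 114), against 25.5 to 40.8 at Midday (median 32.5). In liver the groups overlapped, with 9.28 to 55.1 CPM at Midday (median 18.1), 27.1 to 107 at Midnight (median 70.5) and 48.3 to 118 under ALAN (median 74.9). ALAN stood above Midday by a log2 change of 1.74 in brain (adjusted p = 1.74e-09, edgeR), 2.59 in eye (5.79e-13) and 1.68 in liver (0.0236). The skins gave 2.61 (dorsal, adjusted p = 7.24e-06, edgeR) and 2.74 (ventral, 3.33e-05). In liver the call was lost without any 1 of 4 Midday libraries (male 2, female 1, female 3 or female 4) and without the libraries that stood apart (1.69, adjusted p = 0.0514, edgeR), and the highest adjusted p over the alternatives was 0.0534. In dorsal skin it was lost with the class as a term (2.49, adjusted p = 0.086, edgeR). For liver no fit with the class was possible, since the class changed together with the treatment between Midday and ALAN. The liver value therefore cannot be separated from the counting class.

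ENSACAG00000006765, the member of rank 2, had a large night level in eye and brain and no night rise that passed the test in the skins or gonads. It has 8 exons on the plus strand of chromosome 2 (69871321 to 69884228). In eye it held 43.3 to 150 CPM at Midday (median 81.0), 644 to 802 at Midnight (median 749) and 420 to 600 under ALAN (median 515). In brain it held 74.0 to 96.6 at Midday (median 86.8), 243 to 330 at Midnight (median 254) and 157 to 247 under ALAN (median 202). Midday did not overlap with either night group in these tissues, and all ALAN libraries lay below all Midnight ones in eye, while in brain those groups overlapped. The Midday and Midnight libraries of both tissues helped to choose this member, which favours these differences, including lower values under ALAN than at Midnight. Its ALAN to Midnight value was -0.50 ± 0.14 in eye (SE, adjusted p = 0.178, edgeR). That of brain was -0.40 ± 0.09 (SE, adjusted p = 0.0931, edgeR), and neither passed the test.

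In liver ENSACAG00000006765 was near the detection limit, at 0 to 2.79 CPM at Midday (median 0.276), 0.954 to 4.65 at Midnight (median 2.07) and 0.412 to 10.6 under ALAN (median 2.89). Per kilobase of exon its median level over all libraries was 114 RPKM in eye, 44.8 in brain and 0.329 in liver, the widest ratio between tissues of any member (347-fold). Its lowest t statistic, which set its rank, was that of liver, where it passed the limit of 1 CPM through the night libraries.

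**Figure D4:**
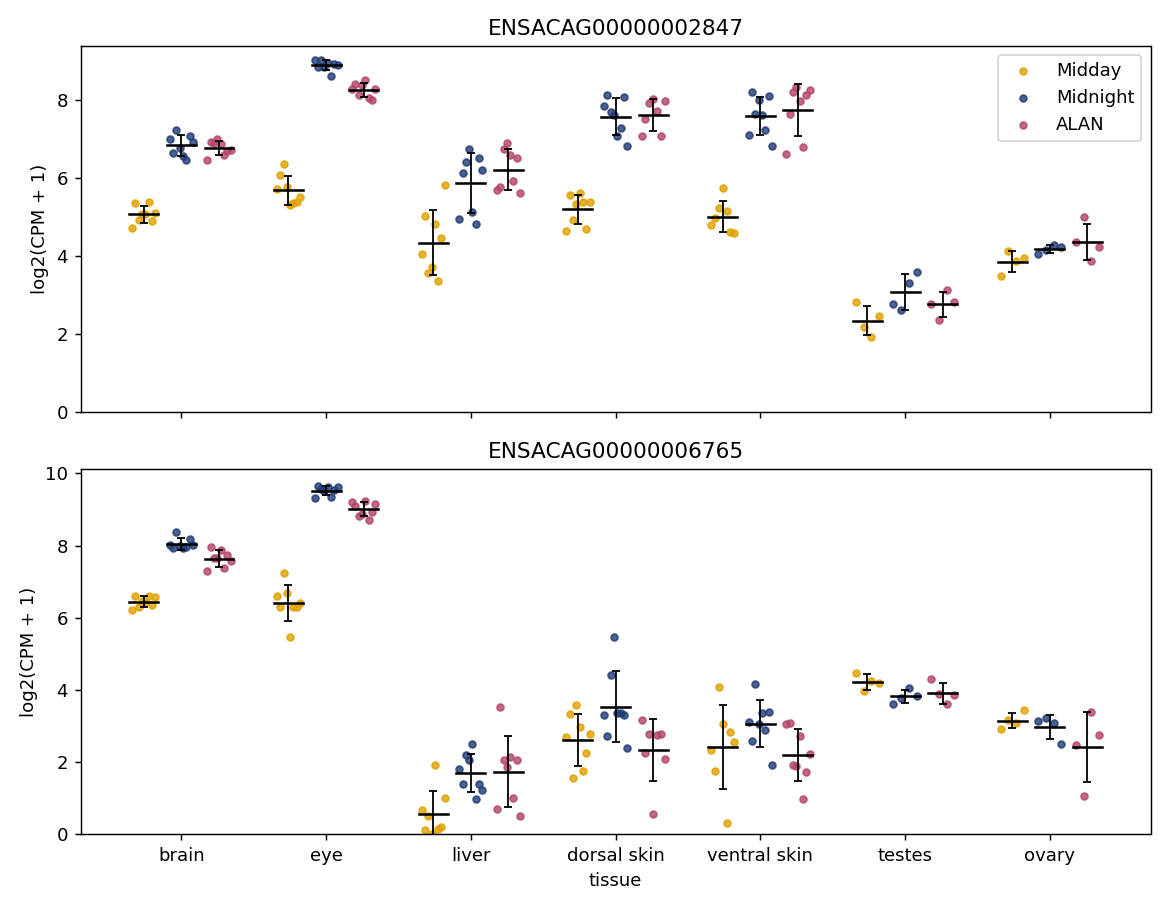
Levels of ENSACAG00000002847 (top) and ENSACAG00000006765 (bottom) as log2(CPM + 1) (vertical axis) by tissue (horizontal axis) and treatment; points are libraries, bars the mean and SD. The upper gene is low at Midday and high in both night groups in brain, eye and skins; the lower gene shows this in eye and brain, and its groups overlap in the skins and gonads.

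In dorsal skin ENSACAG00000006765 held 1.92 to 11.0 CPM at Midday (median 5.65), 4.27 to 43.0 at Midnight (median 9.07) and 0.470 to 7.95 under ALAN (median 5.70), a Midnight to Midday log2 value of 1.19 (adjusted p = 0.292, edgeR). The highest library, Midnight female 4, also held the largest share of counts in 182 brain-enriched genes among the Midnight dorsal skin libraries (0.390%, next 0.0938%). In ventral skin the value was 0.48 (adjusted p = 0.732, edgeR), in testes -0.42 and in ovary -0.19. Under ALAN it stood above Midday in brain by 1.22 ± 0.09 (SE, adjusted p = 7.46e-09, edgeR), and by 2.56 ± 0.15 in eye (adjusted p = 9.01e-11). The Midday libraries of brain and eye helped to choose this member, which favours higher values under ALAN.

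Outside the tissues that chose them, few members were called higher at Midnight. All 30 were tested in all 7 tissues. In dorsal skin 1 of 30 was called higher, ENSACAG00000002847, against 0.0445% of all genes tested. In ventral skin the same gene was the 1 called, against 0.0285%. In each skin 5 members reached an unadjusted p under 0.05 in the higher and 1 in the lower direction (all genes 5.11% and 5.77% in dorsal skin, 4.66% and 6.53% in ventral skin), and DESeq2 called 1 in dorsal and 3 in ventral skin. In dorsal skin 19 of 30 members lay above 0 with a median log2 of 0.16, against 50.0% and 0.00 over all genes. In ventral skin 21 lay above 0 with a median of 0.27, against 46.7% and -0.03.

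In testes and ovary 0 of 30 were called higher by edgeR, with a background of 0% in both. An unadjusted p under 0.05 was reached by 3 members higher and 1 lower in testes (2.43% and 2.3% of all genes) and by none in ovary (2.17% and 1.45%). DESeq2 gave 0 calls in both. There 17 and 18 members lay above 0 with medians of 0.03 and 0.03, against 50.9% and 50.3% of all genes. After the first 3 ranks the largest values in ventral skin were those of rank 25, at 1.28 (adjusted p = 0.46, edgeR), and rank 4, at 1.14 ± 0.29 (SE, adjusted p = 0.17, edgeR). In dorsal skin these members stood at 0.82 (adjusted p = 0.487, edgeR) and 0.75 ± 0.24 (adjusted p = 0.229, edgeR). Both were singled out after their values were seen. In brain, rank 4 stood at 15.5 to 30.9 CPM over the 8 Midnight libraries with a median of 16.7, and the highest was female 4. That brain library held 1.86% of its counts in ovary-enriched genes, against at most 0.159% in the next, and rank 4 was highest per kilobase in ovary. Without that library the choice kept 22 of the 30 members, with all of the first 10 ranks and so rank 4. Ranks 11, 14, 20, 25 and 30 were also highest in it among the Midnight brain libraries. Of these, all but rank 25 were highest per kilobase in ovary. Ranks 5, 8, 16, 18, 19 and 28, also highest in ovary, were not highest in that library. The part of this share in the values of single members was not tested.

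Under ALAN most members lay a little below their Midnight level in the tissues that chose them. The Midnight libraries there helped to choose the members, which favours lower values under ALAN. In brain 24 of 30 lay below 0 (54.9% of all genes) with a median log2 of -0.11, and 0 were called lower by edgeR against 0.0174% of genes. In eye 26 lay below 0 (50.7%) with a median of -0.12, and 1 was called, against 0.079%. In liver 25 lay below 0 (47.4%) with a median of -0.26, and 0 were called, against 0.141%. The counting class and the light cannot be told apart in liver, and in eye the low-share class held 7 of 8 Midnight and 1 of 8 ALAN libraries. An unadjusted p under 0.05 was reached by 8 members lower in brain, 8 in eye and 7 in liver (6.41%, 6.11% and 6.16% of all genes), and DESeq2 called 1, 2 and 1.

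In the tissues that took no part in the choice, 25 of 30 members lay below 0 in dorsal skin (median -0.30, all genes 50.0%), 20 in ventral skin (median -0.19, all genes 54.1%), 18 in testes (median -0.05, all genes 50.9%) and 17 in ovary (median -0.07, all genes 47.2%). EdgeR called 0 members lower in each of the 4, with 0.0223%, 1.36%, 0.116% and 0% of all genes called lower. DESeq2 called 0, 1, 1 and 0, and an unadjusted p under 0.05 gave 5, 4, 2 and 2 lower, against 5.5%, 10.5%, 6.37% and 4.37% of all genes. The counting class also changed between Midnight and ALAN in ventral skin, testes and ovary. The 4 members with a brain level over 10 times their skin level (ranks 2, 13, 19 and 22) had lower medians in skin, at -1.32 in dorsal skin (range -1.72 to -0.68) and -1.06 in ventral skin (-1.65 to -0.86), than the other 26, at -0.25 (-0.94 to 0.26) and -0.14 (-1.23 to 0.67), and the ranges overlapped. The brain-enriched genes took 0.0454% to 0.390% of counts in Midnight dorsal skin and 0.0198% to 0.073% under ALAN, and 0.0367% to 0.0854% and 0.0253% to 0.0514% in ventral skin. The part of these shares in the result was not tested, and the split at 10 times was not a planned comparison. Of the 4 members, ranks 13, 19 and 22 were near the detection limit in skin, with medians of 0.629 to 2.73 CPM.

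**Figure D5:**
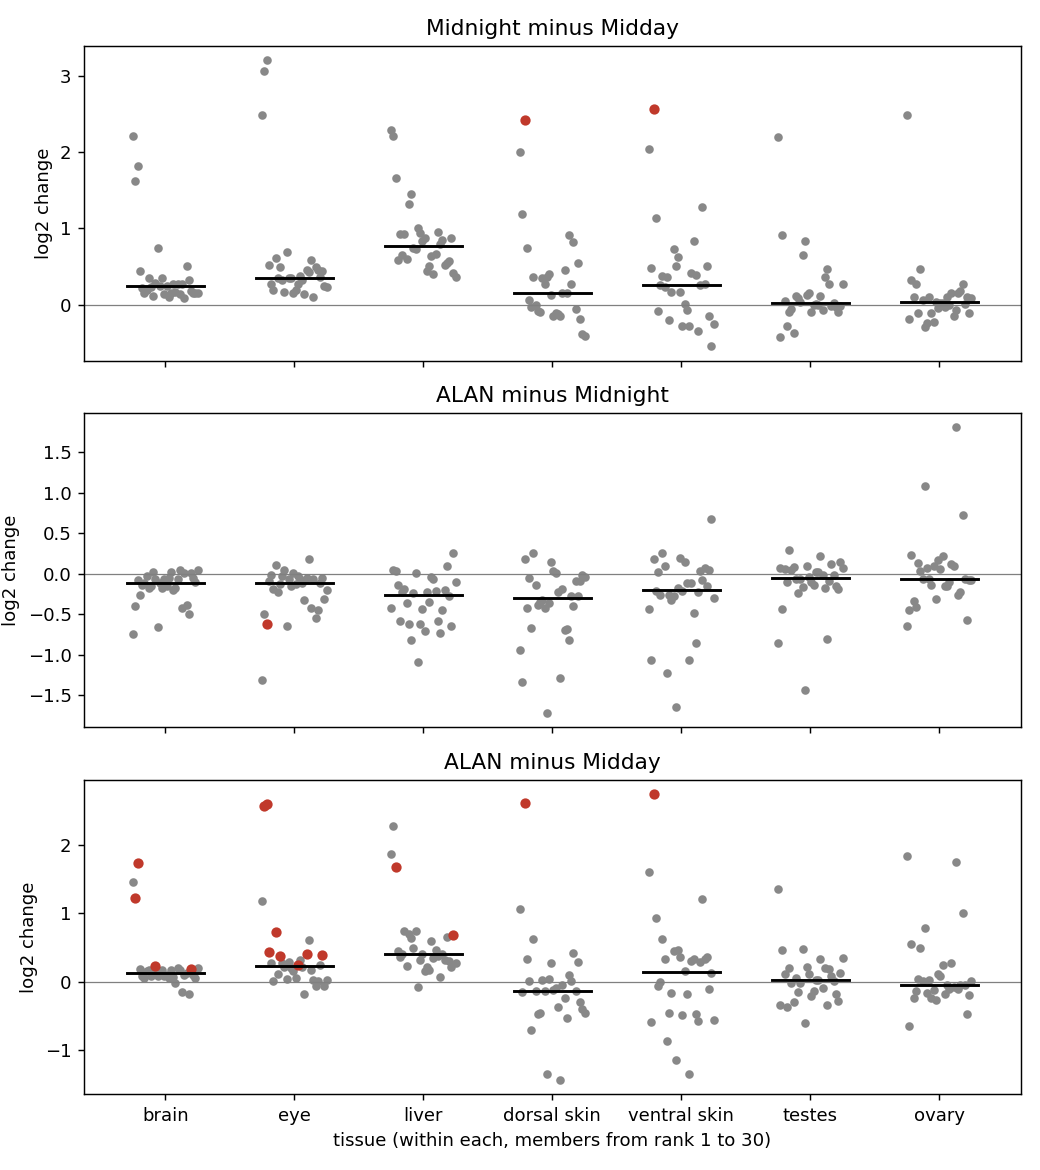
Log2 changes (vertical axes) of the 30 members in 7 tissues (horizontal axis) for the 3 comparisons, with a point for each member and a bar at the median. Red points passed an edgeR adjusted p under 0.05; Midnight minus Midday was not tested in brain, eye and liver, which chose the members, and there all 30 lie above 0, while in testes and ovary the medians lie at 0.03.

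ALAN against Midday shares its samples with the other 2 comparisons, and in brain, eye and liver the Midday libraries helped to choose the members, which favours higher values under ALAN. Members called higher were 8 of 30 in eye (against 2.33% of all genes), 4 in brain (against 0.238%) and 2 in liver (against 0.307%). The eye count depended on the settings: it was 14 by DESeq2 and also without Midday female 3, and 2 with the counting class as a term. Besides ENSACAG00000002847 and ENSACAG00000006765, the 6 in eye rose by log2 values of 0.25 to 0.72 and the 2 in brain by 0.19 and 0.23. In liver the second member called was ENSACAG00000003173, of rank 29, a gene of 9 exons on the plus strand of an unplaced scaffold (15879 to 26283). It held 8.99 to 16.0 CPM at Midday (median 11.6), 10.2 to 16.4 at Midnight (median 14.7) and 15.2 to 27.6 under ALAN (median 20.1), a log2 change of 0.68 ± 0.11 from Midday (SE, adjusted p = 0.00143, edgeR). All 8 ALAN liver libraries were of the low-share class and no Midday liver library was. In skin its Midnight values were below Midday, at -0.38 in dorsal (adjusted p = 0.453, edgeR) and -0.54 in ventral skin (adjusted p = 0.392, edgeR).

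In dorsal and ventral skin 1 member was called higher under ALAN than at Midday (0.0167% and 0.245% of all genes), in testes 0 (0.383%) and in ovary 0 (0.0061%). In testes and ovary DESeq2 called 0, and an unadjusted p under 0.05 gave 0 and 2 members higher, against 5.85% and 12.2% of all genes. In dorsal and ventral skin it gave 2 and 6 higher, against 6.01% and 4.98%. In dorsal skin 12 members lay above 0 and 18 below (median -0.13, 49% of all genes above 0). In ventral skin 16 lay above 0 and 14 below (median 0.14, 45% of all genes above 0). No member was called lower, where all genes gave 0.407% in brain, 4.35% in eye, 0.626% in liver, 0.0389% in dorsal skin, 1.86% in ventral skin, 0.105% in testes and 0.061% in ovary. At an unadjusted p under 0.05, 3 members were lower in each skin (6.3% of all genes in dorsal and 10.6% in ventral skin), 1 in testes (5.44%) and 1 in ovary (4.34%). DESeq2 called 0 in all 7 tissues.

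The choice pooled the sexes, so in brain, eye and liver it favours members with little difference between them. Between females and males edgeR called 0 of 30 in brain, eye, liver and the skins, where 1.22%, 1.31%, 6.17%, 1.22% and 0.188% of all genes were called higher in females and 1.26%, 1.42%, 7.4%, 2.68% and 0.0171% lower. An unadjusted p under 0.05 was reached by 4, 2, 7, 2 and 0 members, against 13.3%, 16.9%, 29.1%, 17.2% and 13.0% of all genes. The night change differed by sex in 0 members in any of these tissues, with 1, 6, 0, 0 and 1 at an unadjusted p under 0.05 (8.74%, 5.74%, 5.43%, 2.32% and 3.52% of all genes), 0 by DESeq2, and 0% of all genes called. In eye, ENSACAG00000002847 held 38.9 to 44.3 CPM in Midday males and 51.9 to 80.9 in Midday females, against 394 to 494 and 458 to 524 at Midnight. These values are a description, and the gene was called in neither comparison of the sexes in eye. Of the Midday eye libraries, females 2 and 4 and male 1 stood apart.

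The members did not share a tissue of high expression. Per kilobase of exon, 11 were highest in ovary, 7 in brain, 6 in eye, 3 in testes, 3 in skin (2 ventral and 1 dorsal) and 0 in liver, while 14 were lowest in liver and 9 in testes. Over the 11037 genes 35.2% were highest in ovary, 18.9% in brain and 11.8% in eye, and 45.1% were lowest in liver. None was among the genes enriched in a single tissue. The choice limits this, since it required a median of at least 1 CPM in brain, eye and liver. The share of the 11037 genes in those lists was not counted. How far members varied together was measured on deviations from the means of treatment and sex groups. The median r over 435 pairs of members was -0.01 for brain, 0.18 for eye and 0.19 for liver, against 0.00, 0.05 and 0.16 for members paired with the other eligible genes. In dorsal and ventral skin it was 0.11 and 0.05 against 0.10 and 0.09. These pairs share libraries and are given as a description.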

How the data were processed

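The authors deposited a single table of unnormalized read counts by Ensembl gene ID, 1 column per library, with coordinates and exon lengths. STAR 2.7.11a, featureCounts, Subread, Trimmomatic and FastQC are named in the submitters' processing notes. Build, annotation release, strand setting and treatment of reads with several places: not given in the sources used here, so overlapping and closely related genes may share reads. All libraries carried the same batch label.

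The members and the lists were chosen with earlier results of these data known. Genes were tested in each tissue with edgeR 4.0.16 in R 4.3.3 (TMM, filterByExpr with treatment and sex as groups, quasi-likelihood fits with the robust option, 3 treatments, and sex as a covariate outside the gonads), with Benjamini-Hochberg adjustment over all genes of the tissue and calls at an adjusted p under 0.05. The skin to gonad difference came from 1 fit of 4 tissues. Each SE of a log2 change was derived from the test, as the size of the change divided by the square root of its F statistic. CPM in the text are scaled by the library total, and RPKM also by exon length. Tissue-enriched genes had a mean level of 5 CPM or more, 8 times that of every other tissue or higher, and come from these libraries. The code was tested on simulated data. Alternatives were DESeq2 1.42.0, RLE size factors, no filter on low counts, the groups compared alone, the replicate number as a block, single libraries left out, and for the choice TMM scaling, a median of at least 5 CPM and edgeR's statistic. The counting class as a term and fits without libraries that stood apart are named where they bear on a result. Shares of all genes called are those of edgeR's main fits, and none is given for DESeq2 or the other alternatives. IDs printed are the first 2 by rank and, in comparisons that did not choose the members, at most 2 called members per direction (most tissues called, then smallest adjusted p). The planned pathway and cell type lists need gene names and were not run. Python 3.11.15, pandas 2.3.3 and matplotlib 3.10.9 were used.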

Additional observations from a re-analysis of the deposited data

Results flagged for a closer look

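In 10 of 84 groups of 4 to 8 libraries for the 4 IDs printed, 1 library lay far from the others by Dixon's criterion. Chance meets it in about 1 of 20 independent groups of normally distributed values. These groups share animals across tissues, and ENSACAG00000002850 fell into high and low libraries, so the count cannot be set against that rate. ENSACAG00000002850 stood at 17.4 CPM in the eye of ALAN female 3 (next 7.2), at 2.26 in testes of Midday male 3 (next 0.0832) and at 5.32 in ovary of Midday female 4 (next 0.172), all numbers in which it was high in every tissue. ENSACAG00000006765 stood at 2.79 CPM in liver of Midday male 1 (next 0.993), 10.6 in liver of ALAN female 2 (next 3.41), 43.0 in dorsal skin of Midnight female 4 (next 20.4) and 17.0 in ventral skin of Midnight female 3 (next 9.51). ENSACAG00000003173 stood at 32.0 CPM in brain of ALAN female 2 (next 38.9), 16.0 in liver of Midday male 1 (next 12.2) and 62.7 in ovary of Midday female 3 (next 50.5).

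The night change of ENSACAG00000002847 differed between tissues, being larger in skin than in gonads by a log2 value of 1.91 (adjusted p = 9.55e-05, edgeR). That fit treated libraries of the same animal as independent and had no term for the counting class, which moved with treatment in dorsal skin.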

How the results depend on the processing

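Counts of members in this paragraph are those at an adjusted p under 0.05, without a share of all genes beside them. Higher at Midnight than Midday, DESeq2 gave 3 in ventral skin, and the counting class as a term gave 0 in dorsal skin. Lower under ALAN than at Midnight, DESeq2 gave 1 each in brain, liver, ventral skin and testes and 2 in eye, RLE size factors gave 1 in ventral skin, and in eye the 2 groups alone gave 2, fits without libraries that stood apart 2 and the class as a term 0. Higher under ALAN than at Midday, DESeq2 gave 14 in eye and 2 in ventral skin, the 2 groups alone gave 3 in eye, and the class as a term gave 2 in eye and 0 in dorsal skin. The class could not be a term in brain, liver and testes. With the replicate number as a block, that count was 2 in brain and 4 in eye, and no other count moved by over 1.5 times. The number marks no shared animal across treatments, and 30 of 140 same-numbered pairs correlated best with their own number (r from -0.452 to 0.693).

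With single libraries left out, counts lower under ALAN than at Midnight ran from 0 to 1 in brain (1 without ALAN female 2), liver (Midnight female 2) and ventral skin (Midday male 2, Midday female 4 or Midnight female 2). Counts higher under ALAN than at Midday ran from 2 to 5 in brain, 4 to 14 in eye and 1 to 3 in liver, and all other counts were the same under every omission. Of the 30 members, 17 were chosen again at a median of at least 5 CPM, 19 by edgeR's statistic, 21 with TMM scaling, 22 without the brain library of Midnight female 4 and 16 without the libraries that stood apart. The last pair of alternatives was chosen after seeing the data. For the 16 results of ENSACAG00000002847, ENSACAG00000006765 and ENSACAG00000003173 recomputed under the alternatives, none changed direction. Without the libraries that stood apart, the liver ALAN to Midday change of ENSACAG00000002847 was 1.69 (adjusted p = 0.0514, edgeR). Low counts limit ENSACAG00000006765 and ENSACAG00000002850 in liver, where their Midday medians were 0.276 and 0.0594 CPM.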
